A study of Gallus gallus with 20 samples.

Results

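The genes described are 9 nuclear receptors that sense hormones and lipids in the liver. Those for hormones are the estrogen receptor ESR1, the glucocorticoid receptor NR3C1 and the thyroid hormone receptors THRA and THRB. The others are the fatty acid sensors PPARA and PPARG, the oxysterol receptor NR1H3, the hepatocyte factor HNF4A and RXRA, a partner of several of the 9. The 9 receptors were listed by name, with earlier results of these data known. All 9 were found among the 21749 genes of the expression table and among the 12808 genes tested. VTG2, which encodes the main egg yolk vitellogenin and is a classical estrogen-induced gene of bird liver, was followed beside them as the readout of estrogen action. The samples were 20 liver RNA-seq libraries of Guangxi Ma hens, 4 in each of 5 groups: hens of 32 weeks, high-laying and low-laying hens of 50 weeks, and high-laying and low-laying hens of 72 weeks. No genetic change or treatment is given for any group, so the groups differ in age and laying performance only as far as the labels tell. The week 32 hens are labelled as high in laying performance and have no low-laying counterpart, so they are called by age. Whether each library is a different hen is not stated, so the p-values measure the spread between libraries, which may be technical.

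Nuclear receptors are transcription factors that bind small lipid-soluble ligands and then recruit coregulators at their target genes. In the laying hen, estrogen from the ovarian follicles reaches the liver and acts through ESR1 on the genes of yolk precursors. THRA, THRB, PPARA, PPARG and NR1H3 act on DNA as pairs with a retinoid X receptor such as RXRA, while ESR1, NR3C1 and HNF4A act mainly as pairs of themselves.

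The authors deposited TPM values, transcript levels scaled by transcript length and by library total, and the number of reads behind each value is unknown. The listed genes summed to 764047 to 852815 TPM per library, and 17155 to 18005 genes had a value above 0. ALB, the albumin gene and a defining hepatocyte marker, stood at 5194 to 34919 TPM in every library, and the 10 hepatocyte markers together at 33675 to 101101 TPM. No gene of the marker lists for biliary, adipose, macrophage, lymphoid, endothelial, stellate or erythroid cells that passed the filter was at 0 in any library. The adipocyte marker ADIPOQ, the biliary marker CFTR, the B cell marker PAX5 and the erythroid marker EPB42 did not pass it. Which cells the other transcripts came from was not tested. In bulk tissue, fewer cells of a type and less RNA per cell cannot be told apart. The libraries with the lowest median Spearman correlation to the others across genes were replicate 1 of week 50 high (0.928), replicate 3 of week 50 low (0.923) and replicate 2 of week 72 low (0.923).

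The 9 receptors spanned a wide range of levels, and the highest and the lowest were the same receptors in all 20 libraries. NR1H3, which senses oxysterols and drives genes of cholesterol export and fat synthesis, had the highest level of the 9 in all 20 libraries, with a mean of 94.8 TPM and a coefficient of variation (CV, the SD over the mean) of 24.2%. PPARA, the main switch of fatty acid oxidation in liver, averaged 47.5 TPM with a CV of 34.1%. RXRA, a dimer partner of several of the others, averaged 37.5 TPM and was the steadiest of the 9, with a CV of 14.1%. THRA averaged 19.7 TPM with a CV of 22.3%. These 4 receptors lay above the remaining 5 on average.

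ESR1 averaged 14.1 TPM with a CV of 45.7%, the widest relative spread of the 9. NR3C1 and HNF4A both averaged 12.4 TPM, with CVs of 17.7% and 41.0%, and THRB averaged 11.9 TPM with a CV of 34.3%. PPARG, best known as the adipocyte receptor, was lowest of the 9 in all 20 libraries and averaged 4.36 TPM with a CV of 40.3%. Between neighbours in this order, NR1H3 lay above PPARA, RXRA above THRA, and THRB above PPARG in 20 of 20 libraries. PPARA lay above RXRA and THRA above ESR1 in 16 of 20. ESR1 exceeded NR3C1 in 11, NR3C1 exceeded HNF4A in 11 and HNF4A exceeded THRB in 10 of 20 libraries, so these 4 receptors had no order beyond their spread.

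**Figure D1:**
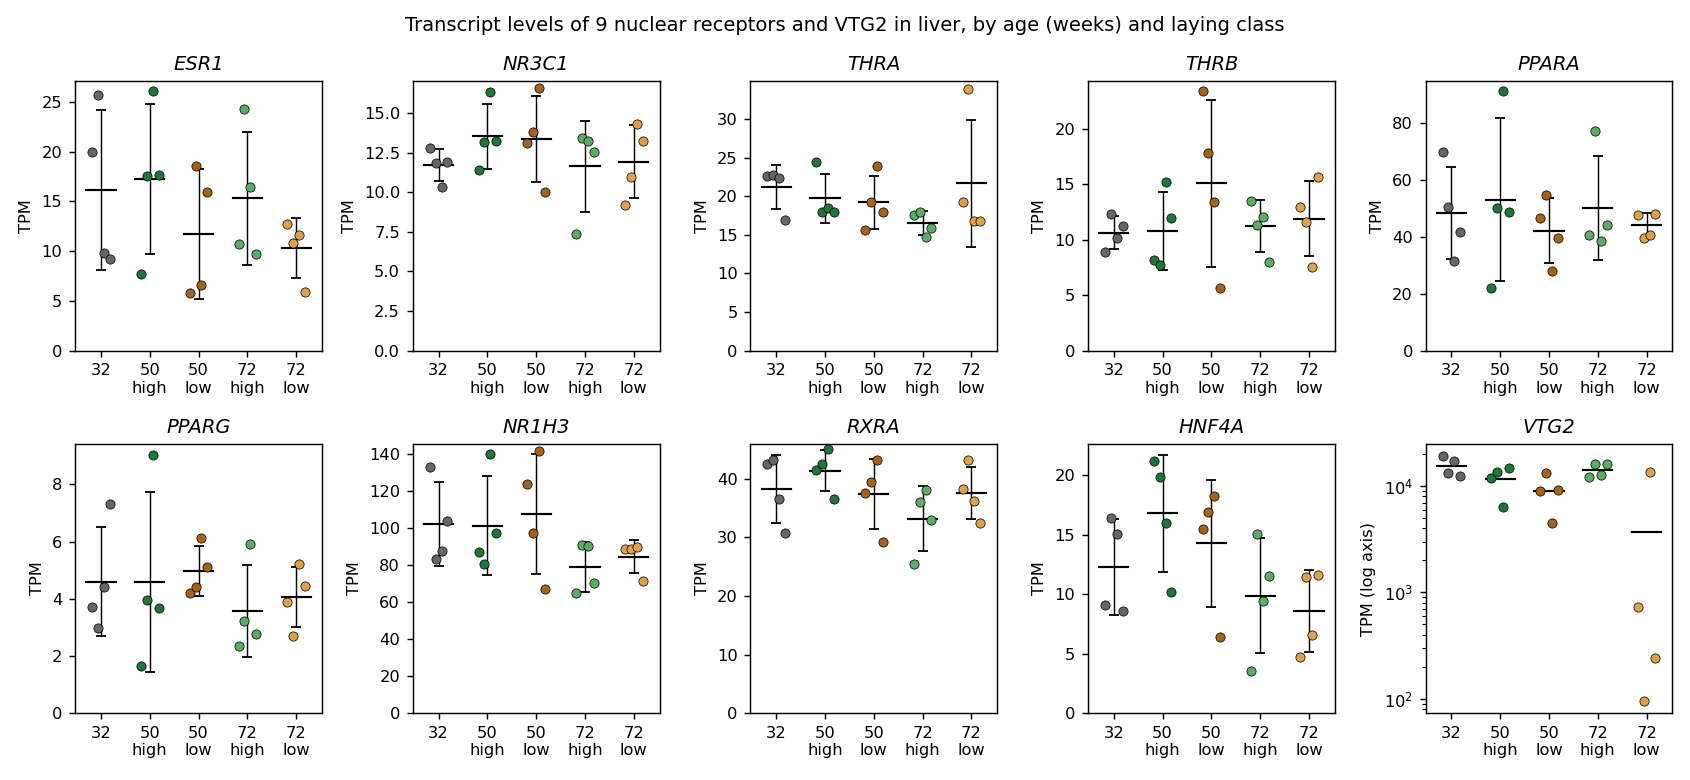
Transcript levels in TPM of the 9 receptors and of VTG2 in each of the 20 liver libraries, by age in weeks and laying class. Points are libraries, the long bar is the mean of 4 libraries and the error bars are 1 SD; the VTG2 panel has a log axis and shows the mean without an SD. The groups of every receptor overlap, while 3 of the 4 week 72 low libraries lie at 95.1 to 725 TPM of VTG2 and all other libraries at 4528 TPM or more.

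No receptor passed the test of a difference between the groups. In limma on log2(TPM + 1) with Benjamini-Hochberg adjustment over the 12808 genes, the F test of any difference among the 5 groups called 0 of the 9 receptors, against 0.00781% of all genes tested. At an unadjusted p under 0.05 it also gave 0 of 9, against 8.88% of all genes. The smallest values were those of HNF4A (F = 1.93, adjusted p = 0.691) and NR1H3 (F = 1.196, adjusted p = 0.834). Over the 9 receptors in 9 comparisons, limma called 0 of 81 differences, and 0 of 81 had an unadjusted p under 0.05, although 20 of 2511 tests under the alternatives did. In the 72 tests that set 1 group against another, no receptor had all 4 libraries of a group above or below all 4 of the other. Of the 81 fitted differences, 77 were under 0.5 in size on the log2(TPM + 1) scale, which understates the change of genes of low level.

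These counts have to be read against a low background. In the comparison of high with low layers, limma called 0% of all genes at week 50 and 0.00781% at week 72, and 0% in the test of whether the laying difference changed between the ages. Against week 32, it called 0% of genes in week 50 high, 0% in week 50 low, 0.00781% in week 72 high and 0% in week 72 low livers. Week 72 set against week 50 gave 0% of genes in high layers and 0.039% in low layers. At an unadjusted p under 0.05 the same comparisons gave, in that order, 2.97%, 5.27%, 2.37%, 10%, 8.91%, 5.22%, 7.69%, 4.59% and 8.53% of genes. Groups without overlap were found for 1.78% and 2.92% of genes in the laying comparisons at weeks 50 and 72, for 7.89%, 4.34%, 4.18% and 3.71% in the 4 comparisons with week 32, and for 3.58% and 3.17% in week 72 against week 50. With shares this low, 0 of 9 receptors is near the background and is not a result about the receptors.

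ESR1 lies on chromosome 3 at 48719758 to 48824554 (GRCg7b, RefSeq annotation, gene start to end). The transcript stood at 19.9, 25.7, 9.86 and 9.23 TPM in the 4 week 32 livers. At week 50 ESR1 stood at 7.67, 17.6, 26.1 and 17.6 TPM in high layers, against 5.76, 18.6, 6.63 and 15.9 TPM in low layers. At week 72 ESR1 stood at 10.7, 24.3, 16.5 and 9.75 TPM in high layers, against 12.7, 10.8, 11.7 and 5.95 TPM in low layers. Each group held livers near or under 10 TPM, and 4 of the 5 groups, all but week 72 low, also held livers above 18 TPM.

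The ESR1 means were higher in high than in low layers at both ages, but by no more than the spread between libraries. The mean was 17.2 ± 7.52 TPM in high layers and 11.7 ± 6.49 TPM in low layers at week 50, and 15.3 ± 6.68 TPM in high layers and 10.3 ± 3.0 TPM in low layers at week 72 (SD, n = 4 each). The fitted log2 difference was 0.56 ± 0.42 (SE; 95% interval -0.31 to 1.44) at week 50 and 0.49 ± 0.42 (95% interval -0.38 to 1.37) at week 72, both with an adjusted p of 1 in limma. The change of this difference between the ages was -0.07 ± 0.59 with an adjusted p of 1. In week 32 livers the mean was 16.2 ± 8.02 TPM (SD, n = 4). The log2 difference from week 32 was 0.10 ± 0.42 in week 50 high, -0.47 ± 0.42 in week 50 low, -0.04 ± 0.42 in week 72 high and -0.53 ± 0.42 in week 72 low livers. Single libraries moved the laying difference: at week 50 it was 0.88 without week 50 high replicate 1 (adjusted p = 0.804 in limma) and 0.31 without week 50 low replicate 1, and at week 72 it was 0.25 without week 72 high replicate 2.

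VTG2 lies on chromosome 8 at 16204330 to 16225309. Whether its pattern over the groups differs from that of ESR1 was not tested. At week 72 VTG2 stood at 12212, 15950, 12625 and 16071 TPM in high layers, against 725, 95.1, 13572 and 241 TPM in low layers. At week 50 VTG2 stood at 11996, 13687, 6344 and 14774 TPM in high layers, against 9062, 13283, 4528 and 9164 TPM in low layers. The week 32 livers held 19153, 13175, 17063 and 12448 TPM. Week 72 low livers 1, 2 and 4 thus lay far below the other 17 libraries, and week 72 low liver 3 lay among them. The laying difference at week 72 was 4.35 ± 0.92 on the log2 scale, with an adjusted p of 0.179 in limma, so VTG2 missed the threshold over all genes. Over 28 alternatives the difference ranged from 3.40 to 5.78, and in 27 of them VTG2 again missed the threshold. The value of 5.78 came without week 72 low replicate 3, and there VTG2 passed (adjusted p = 2.57e-06 in limma). That library is set apart by its VTG2 value itself, so this pass is a description and adds no evidence of a laying difference.

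ESR1 lay within its range in the 3 livers with little VTG2. Its level there was 12.7, 10.8 and 5.95 TPM, against 5.76 to 26.1 TPM and a median of 15.9 TPM in the other 17 libraries. Of these 17, 8, 7 and 1 libraries had less ESR1 than week 72 low livers 1, 2 and 4. Per TPM of ESR1 there were 56.9, 8.78 and 40.4 TPM of VTG2 in the 3 livers, against 243 to 1731 in the other 17. Week 72 low liver 3 had 11.7 TPM of ESR1 and 1165 TPM of VTG2 per TPM of ESR1. The groups of libraries were set by the widest gap in VTG2 itself, so these values are a description, with no test.

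**Figure D2:**
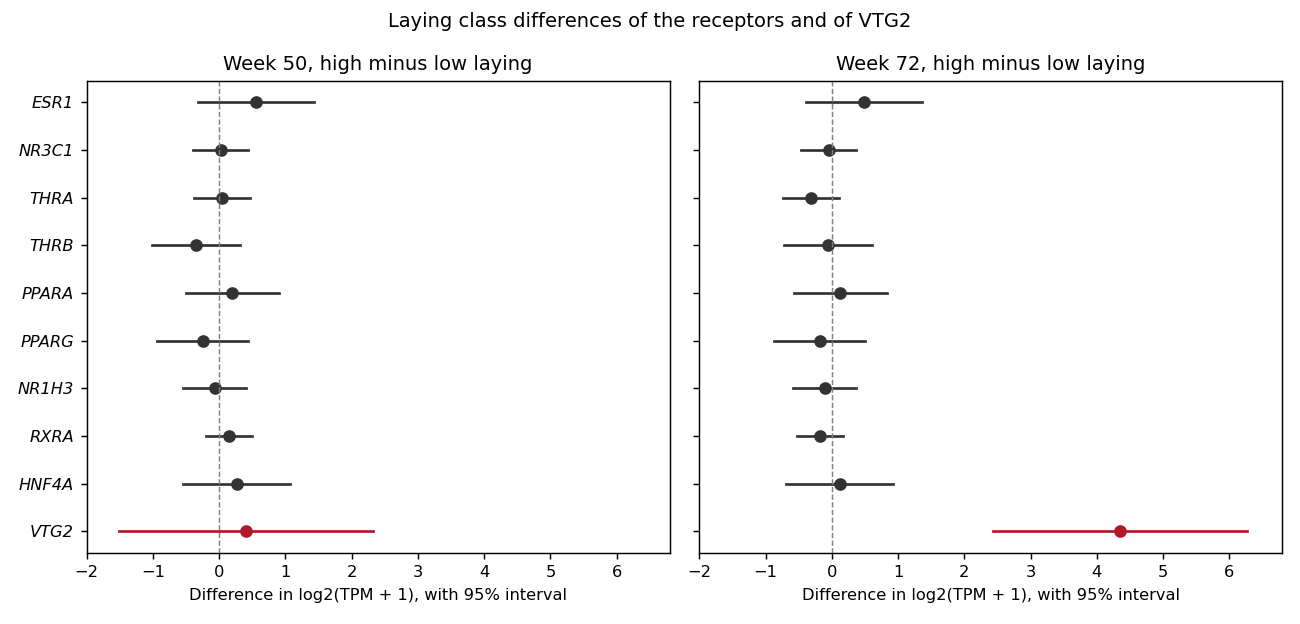
Difference between high and low layers in log2(TPM + 1), with its 95% interval from limma, for the 9 receptors and VTG2 at week 50 and at week 72. The intervals of all 9 receptors include 0 at both ages, while that of VTG2 runs from 2.43 to 6.27 at week 72.

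Other estrogen receptors were expressed beside ESR1. ESR2, the second nuclear estrogen receptor, had 1.23 to 13.5 TPM and lay below ESR1 in 18 of 20 libraries, with a median ratio of ESR1 to ESR2 of 2.46. GPER1, a membrane estrogen receptor, lay below ESR1 in 20 of 20 libraries, with a median of 1.75 TPM. TPM allows these comparisons between genes because it is scaled by transcript length.

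NR3C1, the receptor of corticosterone in birds, lies on chromosome 13 at 16997653 to 17099929. It held 10.3 to 12.8 TPM in week 32 livers. At week 50 NR3C1 stood at 11.4, 13.2, 16.3 and 13.2 TPM in high layers, against 13.1, 13.8, 16.6 and 10.01 TPM in low layers. At week 72 NR3C1 stood at 7.38, 13.4, 13.3 and 12.5 TPM in high layers, against 9.21, 11, 14.3 and 13.2 TPM in low layers. Week 72 high liver 1 was lowest of all, and the values of both classes overlapped at both ages. For NR3C1 the laying difference was 0.03 ± 0.20 (95% interval -0.39 to 0.44) at week 50 and -0.05 ± 0.20 (95% interval -0.46 to 0.37) at week 72. NR3C2, the mineralocorticoid receptor, lay above NR3C1 in 10 of the 20 libraries and below it in the other 10.

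THRA, the thyroid hormone receptor on chromosome 27 at 4330936 to 4344802, held 16.9 to 22.8 TPM in week 32 livers. At week 50 THRA stood at 24.5, 18, 18.5 and 18 TPM in high layers, against 15.7, 19.3, 23.9 and 17.9 TPM in low layers. At week 72 THRA stood at 17.6, 18, 14.7 and 15.9 TPM in high layers, against 19.2, 33.9, 16.7 and 16.8 TPM in low layers. The value of 33.9 TPM belonged to week 72 low liver 2, which also had the lowest VTG2, and was the only receptor value of the 3 livers with little VTG2 outside the range of the other 17 libraries (14.7 to 24.5 TPM for THRA). For THRA the laying difference was 0.04 ± 0.20 at week 50 and -0.31 ± 0.20 at week 72, and its change between the ages was -0.35 ± 0.29, with an adjusted p of 1 each. Without week 72 low replicate 2 these last values were -0.085 and -0.13. In week 72 high livers THRA differed from week 32 by -0.33 ± 0.20 (adjusted p = 0.979).

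THRB, the second thyroid hormone receptor, lies on chromosome 2 at 37164426 to 37332785. It held 8.91 to 12.3 TPM in week 32 livers. At week 50 THRB stood at 8.20, 7.70, 15.2 and 12.0 TPM in high layers, against 23.4, 17.9, 13.4 and 5.66 TPM in low layers. The week 50 low livers held both the highest and the lowest THRB values of the 20 libraries. At week 72 THRB stood at 13.5, 11.4, 12.0 and 7.97 TPM in high layers, against 12.9, 11.6, 7.52 and 15.7 TPM in low layers. For THRB the laying difference was -0.35 ± 0.32 at week 50 and -0.06 ± 0.32 at week 72. THRA lay above THRB in 19 of 20 libraries, with a median ratio of 1.68.

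PPARA lies on chromosome 1 at 71081359 to 71359919. It held 31.5 to 69.8 TPM in week 32 livers. At week 50 PPARA stood at 22.2, 50.2, 91.3 and 48.6 TPM in high layers, against 46.5, 54.8, 27.9 and 39.8 TPM in low layers. At week 72 PPARA stood at 40.5, 77.3, 38.4 and 44.3 TPM in high layers, against 47.7, 39.6, 40.6 and 48.1 TPM in low layers. The week 50 high livers held both the lowest and the highest PPARA values of the series. For PPARA the laying difference was 0.20 ± 0.33 (95% interval -0.50 to 0.90) at week 50 and 0.13 ± 0.33 (95% interval -0.57 to 0.83) at week 72.

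PPARG, on chromosome 12 at 5019526 to 5074079, held 2.97 to 7.31 TPM in week 32 livers. At week 50 PPARG stood at 1.65, 3.96, 9.04 and 3.69 TPM in high layers, against 4.21, 4.41, 6.13 and 5.11 TPM in low layers. At week 72 PPARG stood at 2.34, 3.21, 5.91 and 2.78 TPM in high layers, against 3.87, 2.71, 5.20 and 4.46 TPM in low layers. The lowest and highest PPARG values were those of the same week 50 high livers, 1 and 3, that held the extremes of PPARA. For PPARG the laying difference was -0.25 ± 0.33 at week 50 and -0.18 ± 0.33 at week 72. PPARA lay above both PPARG and PPARD, the third receptor of this family, in 20 of 20 libraries, with median ratios of 12.4 and 8.17.

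NR1H3, the liver X receptor alpha gene, lies on chromosome 5 at 22647459 to 22675585. It held 83.1 to 133 TPM in week 32 livers. At week 50 NR1H3 stood at 87.2, 80.4, 140 and 97.0 TPM in high layers, against 124, 97.2, 141 and 67.1 TPM in low layers. At week 72 NR1H3 stood at 65.0, 90.6, 90.3 and 70.0 TPM in high layers, against 88.6, 88.4, 89.8 and 71.3 TPM in low layers. No week 72 liver passed 91 TPM, while each of the other groups held at least 1 liver above 100 TPM. The differences did not pass: week 72 high livers differed by -0.35 ± 0.23 from week 32 (adjusted p = 0.988) and by -0.33 ± 0.23 from week 50 high livers (adjusted p = 1). For NR1H3 the laying difference was -0.07 ± 0.23 at week 50 and -0.11 ± 0.23 at week 72. NR1H4, the bile acid receptor of the same subfamily, lay above NR1H3 in 11 libraries and below it in 9.

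RXRA lies on chromosome 17 at 7885032 to 7962921. It held 30.7 to 43.1 TPM in week 32 livers. At week 50 RXRA stood at 41.4, 42.4, 45 and 36.6 TPM in high layers, against 37.6, 39.4, 43.2 and 29.2 TPM in low layers. At week 72 RXRA stood at 25.5, 36.1, 38.1 and 33.0 TPM in high layers, against 38.3, 43.1, 36.2 and 32.5 TPM in low layers. The range over all 20 livers was 1.76-fold, the narrowest of the 9. RXRA in week 72 high livers differed by -0.32 ± 0.17 from week 50 high livers (adjusted p = 1). For RXRA the laying difference was 0.15 ± 0.17 at week 50 and -0.18 ± 0.17 at week 72, and its change between the ages was -0.34 ± 0.23 (adjusted p = 1). RXRG, another retinoid X receptor, lay above RXRA in 20 of 20 libraries, with a median of 71.4 TPM against 37.9 TPM.

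HNF4A, a regulator of many hepatocyte genes, lies on chromosome 20 at 5759568 to 5789213. It held 9.12, 16.4, 15 and 8.61 TPM in week 32 livers. At week 50 HNF4A stood at 21.2, 19.9, 15.9 and 10.2 TPM in high layers, against 15.4, 16.9, 18.3 and 6.42 TPM in low layers. At week 72 HNF4A stood at 3.53, 15, 9.39 and 11.6 TPM in high layers, against 4.76, 11.4, 6.60 and 11.6 TPM in low layers. All groups overlapped, and the span over the 20 livers was 6.0-fold, the widest of the 9. For HNF4A the laying difference was 0.26 ± 0.39 at week 50 and 0.12 ± 0.39 at week 72.

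The age difference of HNF4A was the largest in size among the 81 receptor tests and did not pass. Week 72 high livers averaged 9.88 ± 4.84 TPM, against 16.8 ± 4.94 TPM in week 50 high livers, a log2 difference of -0.80 ± 0.39 (adjusted p = 1). Week 72 low livers averaged 8.60 ± 3.46 TPM, against 14.3 ± 5.35 TPM in week 50 low livers, a log2 difference of -0.65 ± 0.39 (adjusted p = 0.704). With 1 library left out in turn, the difference in high layers ranged from -1.035 to -0.43, the latter without week 72 high replicate 1. That in low layers ranged from -0.97 to -0.43, the latter without week 72 low replicate 1. Over 28 alternatives each, 6 in high layers and 1 in low layers had an unadjusted p under 0.05 in limma. None passed the adjusted threshold. In the same comparisons no blood cell marker passed the adjusted threshold, but their levels stood apart in part: the 8 T or NK cell markers summed to 65.4 to 163 TPM in week 72 high livers, against 137 to 220 TPM in week 50 high livers, and the 4 erythroid markers to 668 to 949 TPM in week 72 high livers, against 193 to 291 TPM in week 50 high livers. The 5 B or plasma cell markers summed to 57.8 to 384 TPM in week 72 low livers, against 175 to 11084 TPM in week 50 low livers. At an unadjusted p under 0.05, 6 of the 8 T or NK markers were lower and 3 of the 4 erythroid markers higher in high layers, and 4 of the 5 B or plasma markers lower in low layers, against 4.59% and 8.53% of all genes in either direction. Their part in the HNF4A difference was not tested. In high layers the median difference of all genes was also below 0, at -0.10, and median-ratio scaling of the libraries moved it by 0.11; the HNF4A difference was then -0.68 and that of RXRA -0.19. HNF4beta, a relative of HNF4A, lay above it in 20 of 20 libraries, with a median of 116 TPM against 11.6 TPM, and HNF4G lay below it in 14 of 20.

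Some receptor genes overlap other annotated genes from gene start to end. Whether their exons overlap was not examined, and the sources used here do not give the strand setting of the counting. Whether reads were shared within such pairs is thus unknown. The long non-coding gene LOC107054880 overlaps HNF4A and was listed at 4.60 to 22.4 TPM, as high as HNF4A itself. LOC107052216 overlaps RXRA and was listed at 0.920 to 7.15 TPM, and the genes overlapping PPARA and THRB in the table were listed under 1 TPM in every library.

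**Figure D3:**
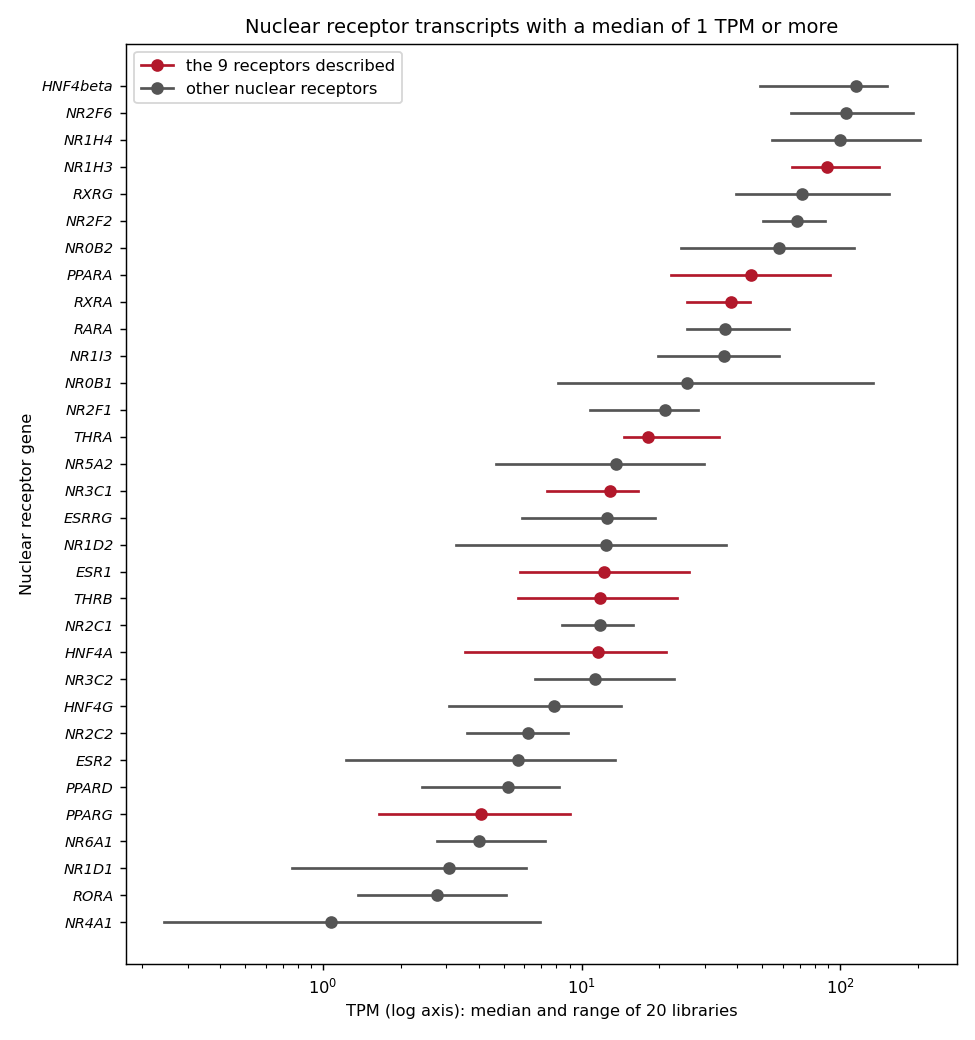
Median (point) and range (line) over 20 libraries of the transcript level, in TPM on a log axis, for the nuclear receptor genes reported here with a median of 1 TPM or more. NR1H3 is in place 4, PPARA in place 8 and RXRA in place 9 by median level, while ESR1 is in place 19 and PPARG in place 28.

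Of 42 other nuclear receptor genes looked for by symbol, 35 were in the table and 26 passed the filter of at least 1 TPM in 4 libraries. Those with the highest medians were HNF4beta (116 TPM), NR2F6 (105 TPM) and NR1H4 (99.8 TPM). In the laying comparisons limma called 0 of the 26 at either age. At an unadjusted p under 0.05, 0 of 26 were called at week 50, and at week 72 1 was lower and 0 were higher in high layers, against 1.62% of all genes lower and 3.65% higher. That gene was NR0B1, which encodes a receptor without a classical DNA-binding domain that represses other nuclear receptors.

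NR0B1 was high in the same livers in which VTG2 was low. At week 72 NR0B1 stood at 18.3, 8.79, 35.9 and 17.4 TPM in high layers, against 64.3, 134, 22.7 and 66.8 TPM in low layers. Week 72 low livers 1, 2 and 4 thus held 64.3 to 134 TPM, more than any of the other 17 libraries, of which the highest was week 50 high liver 4 with 58.3 TPM. These livers were set apart by VTG2, and NR0B1 was singled out by its p at week 72. The share of all genes that split the libraries in this way was not computed, so this is a description, with no test. The log2 difference between high and low layers at week 72 was -1.70 ± 0.54 (adjusted p = 0.666), so it did not pass over all genes, and at week 50 it was 0.12 ± 0.54. NR0B1 was among the 4 other receptors with the smallest F-test p, with NR2F6, PPARD and ESRRG, whose differences at week 72 were -0.11 ± 0.22, -0.51 ± 0.29 and -0.51 ± 0.26.

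**Figure D4:**
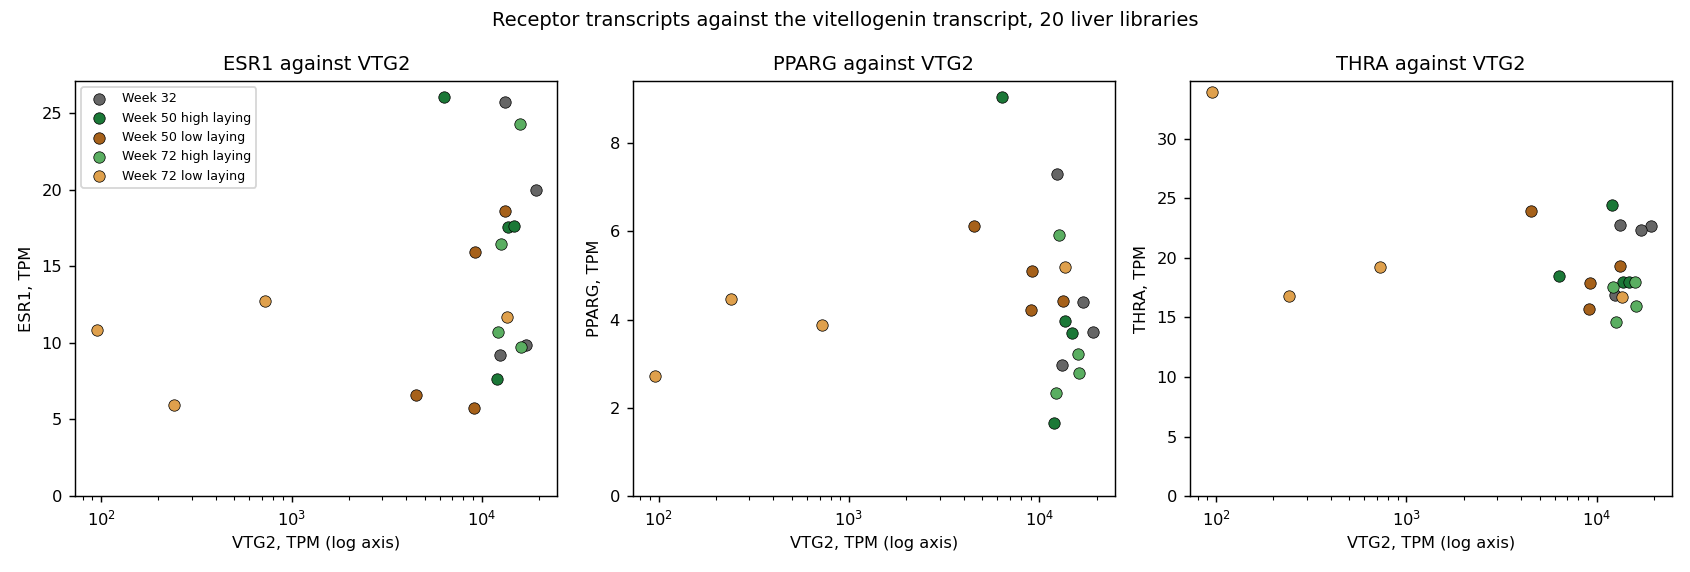
Levels of ESR1, PPARG and THRA in TPM against VTG2 in TPM on a log axis, 1 point per library, coloured by group. The 3 week 72 low livers with 95.1 to 725 TPM of VTG2 lie within the range of the other 17 libraries for ESR1 and PPARG, and 1 of them lies above it for THRA.

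The libraries fall into separate clusters of VTG2, so correlations with VTG2 were computed over the 17 libraries of the larger cluster, on log2(TPM + 1), for all 9 receptors. In permutation tests with Benjamini-Hochberg adjustment over the 9, 0 of 9 receptors passed. For ESR1, Pearson's r was 0.27 (permutation p = 0.305, adjusted p = 0.549) and Spearman's rho was 0.32 (permutation p = 0.206, adjusted p = 0.556), and r was 0.39 without the 2 libraries farthest from the median of VTG2. For PPARG, r was -0.49 (permutation p = 0.0446, adjusted p = 0.307) and rho was -0.38 (permutation p = 0.134, adjusted p = 0.556). For NR1H3, r was -0.45 (permutation p = 0.0683, adjusted p = 0.307) and rho was -0.20 (permutation p = 0.433, adjusted p = 0.671). Without the 2 farthest libraries, week 50 high replicate 3 and week 50 low replicate 3, r was -0.15 for PPARG and 0.18 for NR1H3, so neither relation held without them. Without the 3 libraries least like the others, which include week 50 low replicate 3 but not the other, r was -0.58 for PPARG (permutation p = 0.0241, adjusted p = 0.217) and -0.24 for NR1H3 (permutation p = 0.403, adjusted p = 0.780).

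**Figure D5:**
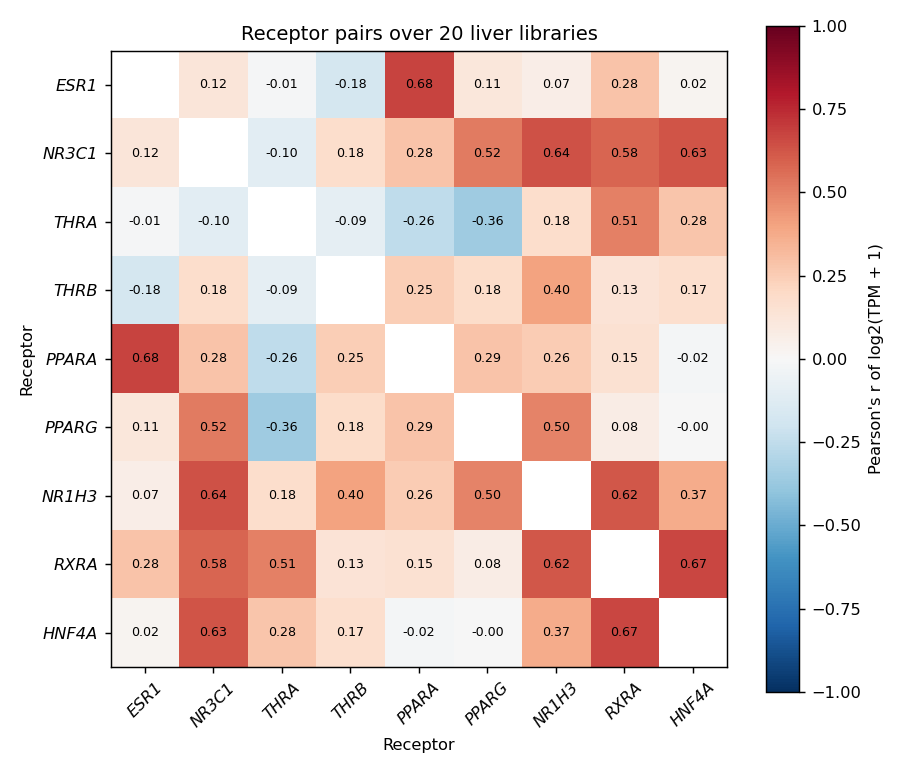
Pearson's r of log2(TPM + 1) over 20 libraries for each pair of the 9 receptors, in numbers and colour. The highest value is 0.68, for ESR1 with PPARA, and the lowest is -0.36, for THRA with PPARG.

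Of the 36 pairs of receptors, 28 had a positive r over the 20 libraries, beside 65.6% of all pairs of the 12808 tested genes, which share the same libraries and scaling. ESR1 and PPARA had r = 0.68 (permutation p = 0.00081, adjusted p = 0.0247) and rho = 0.68 (permutation p = 0.00137, adjusted p = 0.0481). NR3C1 and NR1H3 had r = 0.64 (permutation p = 0.00237, adjusted p = 0.0268) and rho = 0.62 (permutation p = 0.00401, adjusted p = 0.0481). These 2 pairs passed by both measures, 6 pairs passed by Pearson's r and 3 by rho, with adjustment over the 36. The family of pairs was chosen after the values were seen, and the share of all gene pairs with such values was not computed. The counts of pairs that passed are thus a description and not a result about the receptors. Without the 2 libraries farthest from the median of the second gene of the pair (PPARA and NR1H3 in these 2 pairs), 0 of 36 pairs passed. The value of r was then 0.59 for ESR1 with PPARA and 0.45 for NR3C1 with NR1H3. With each group centred on its mean, 0 of 36 passed, and r was 0.68 and 0.62 for these 2 pairs.

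A measure of the libraries moved with PPARA. For each library, the deviation of every gene from its mean was correlated across genes with the genomic span of the gene. This measure was -0.304, -0.216 and -0.154 in the 3 libraries least like the others, named above, and -0.164 in replicate 4 of week 50 low. The other 16 libraries lay between -0.072 and 0.288. Over the 20 libraries it correlated with PPARA at r = 0.75 (permutation p = 0.00015, adjusted p = 0.00135) and rho = 0.65 (permutation p = 0.00252, adjusted p = 0.0227). For ESR1, r was 0.54 (permutation p = 0.0142, adjusted p = 0.0639) and rho was 0.59 (permutation p = 0.00722, adjusted p = 0.0325). Without the 2 farthest libraries r was 0.57 (permutation p = 0.0138, adjusted p = 0.0620) for PPARA and 0.40 for ESR1, so neither passed. With each group centred on its mean r was 0.78 (permutation p = 0.00044, adjusted p = 0.00396) for PPARA, which passed, and 0.56 (permutation p = 0.0274, adjusted p = 0.0821) for ESR1. Because the measure is built from gene spans, a gene of long span can follow it by construction. Values for other genes of like span were not computed, so these correlations are a description and not a result about PPARA or ESR1. The part of the measure in the correlation of ESR1 with PPARA was not tested.

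Among all tested genes, those most like each receptor over the 20 libraries were named by the highest Pearson's r (leaving out the 9 receptors and genes without a symbol), as a description, since the libraries share their depth and composition across all genes. For ESR1 they were RALGPS2 (r = 0.87), RNF170 (r = 0.87) and UPF3A (r = 0.86). For NR3C1 they were PTP4A1 (r = 0.88), SESN3 and SNX20. For THRA they were KCNN3 (r = 0.93), a calcium-activated potassium channel gene, SLC38A10 and COQ8A, and for THRB they were TXNRD3 (r = 0.86), BBS7 and PWP2. For PPARA they were TANGO2 (r = 0.88), TAF2 and HBS1L, and for PPARG they were ATP10D (r = 0.88), ZYX and NFKB1. NR1H3 was most like WNK1 (r = 0.87), XRN2 and AGO4, RXRA like TNRC18 (r = 0.84), XPO7 and FOXJ3, and HNF4A like FAM193B (r = 0.82), PLD3 and WASF2.

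No gene that works with the receptors passed the test over all genes in the laying comparisons. Of 24 receptor coregulators, the proteins that activate or silence genes at bound receptors, limma called 0 at week 50 and 0 at week 72 between high and low layers, and 0 had an unadjusted p under 0.05 at either age, against 2.97% of all genes at week 50 and 5.27% at week 72, so a count of 0 is near the background. At week 72, 7 had a positive and 17 a negative difference, with a median of -0.09, against 7153 positive, 5651 negative and a median of 0.03 over all genes. Of 15 steroid receptor chaperones, which hold ESR1 and NR3C1 ready for ligand, 0 were called; HSP90AB1 had -0.75 ± 0.36 at week 50 (adjusted p = 1). FKBP5, a chaperone gene that glucocorticoids induce, had -1.17 ± 0.57 at week 72 (adjusted p = 0.929).

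Genes of estrogen-induced yolk precursors were the list that stood farthest from all genes at week 72. All 6 had a positive difference, 6 of 6 with an unadjusted p under 0.05 against 3.65% of all genes, and the median was 4.20, but 0 of 6 passed the adjusted threshold. The livers behind this are those described for VTG2, and the list was chosen with earlier results of these data known. VTG1, a second vitellogenin gene, stood at 4988, 5530, 6784 and 9744 TPM in high layers, against 48.0, 0.443, 7371 and 17.3 TPM in low layers. At week 50 the 6 genes had a median difference of 0.38, and 0 of 6 had an unadjusted p under 0.05, against 1.99% of all genes higher and 0.976% lower. Median-ratio scaling of the libraries moved the median of all genes by -0.06 at week 50 and by -0.04 at week 72. The genes with an unadjusted p under 0.05 were then 188 higher and 212 lower in high layers at week 50, against 255 and 125 before scaling, and 459 higher and 374 lower at week 72, against 467 and 208. Among markers of blood cells, all with an adjusted p over the threshold, the 5 B or plasma cell markers tested summed at week 50 to 65.1 to 457 TPM in high layers, against 175 to 11084 TPM in low layers, and the 4 erythroid markers to 193 to 291 TPM in high layers, against 155 to 3800 TPM in low layers. Their part in the week 50 differences was not tested.

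Of 12 genes of estrogen supply and membrane reception, limma called 0 at either age. At week 72 2 of the 12 were higher in high layers at an unadjusted p under 0.05, against 3.65% of all genes. They were HSD17B7, which acts in estradiol and cholesterol synthesis, with 1.46 ± 0.59 (adjusted p = 0.893), and HSD17B12, a gene of steroid and fatty acid metabolism, with 0.61 ± 0.24 (adjusted p = 0.871). At week 50 the same genes had -1.08 ± 0.59 and -0.09 ± 0.24.

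Among the targets of the other receptors, limma called no gene in either laying comparison. Of 9 glucocorticoid receptor targets, 6 had a negative difference at week 72, against 5651 of all 12808 genes. The list's median was -0.59, against 0.03 over all genes. At an unadjusted p under 0.05, 1 of the 9 was lower and 0 were higher, against 1.62% and 3.65% of all genes. ERRFI1, a feedback inhibitor of growth factor receptors, had -1.27 ± 0.46 (adjusted p = 0.789 in limma). Of 11 thyroid hormone targets and deiodinases, 10 had a negative difference at week 50, against 5143 of all 12808 genes. The median of the 11 was -0.27, against 0.05 over all genes. Of the 10, THRSPB, a gene of the lipogenic THRSP family, had -1.15 ± 0.39 (adjusted p = 1). At week 72 the list's median was 0.20, and ACACA, the acetyl-CoA carboxylase gene of fatty acid synthesis, had 0.96 ± 0.30 (adjusted p = 0.609).

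Of 21 PPARA targets, 18 had a positive difference at week 50 and 14 at week 72, with medians of 0.35 and 0.15. Over all 12808 genes, 7660 had a positive difference at week 50 and 7153 at week 72, with medians of 0.05 and 0.03. CPT1A, which admits fatty acids to the mitochondria, had 0.92 ± 0.42 at week 50 (adjusted p = 1) and 0.87 ± 0.42 at week 72 (adjusted p = 0.929). FABP1, the liver fatty acid binding protein, had 0.61 ± 0.33 at week 50 (adjusted p = 1) and 1.30 ± 0.33 at week 72 (adjusted p = 0.353). Of the 3 targets with a negative difference at week 50, PLIN2, a lipid droplet gene, had -0.97 ± 0.56. At an unadjusted p under 0.05, 1 of the 21 was higher and 1 lower at week 50, against 1.99% and 0.976% of all genes. The 1 higher was CPT1A. The 1 lower was not PLIN2 but ANGPTL4, with -1.56 ± 0.73, which did not pass the adjusted threshold. At week 72, 2 were higher and 0 lower, against 3.65% and 1.62%. The 8 PPARG targets and adipocyte genes split, with 2 higher and 2 lower at week 72 at an unadjusted p under 0.05, against 3.65% of all genes higher and 1.62% lower. SCD, the stearoyl-CoA desaturase gene, had 3.42 ± 0.93 and LPL, the lipoprotein lipase gene, had -1.71 ± 0.66.

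SCD is also a target of NR1H3, and in its list of 14 genes SCD was the 1 higher and LPL the 1 lower at week 72 at an unadjusted p under 0.05, against 3.65% of all genes higher and 1.62% lower, with a list median of -0.13. SREBF1, the lipogenic transcription factor, had -0.57 ± 0.28 (adjusted p = 0.929). Among the 22 HNF4A targets, 12 had a positive and 10 a negative difference at week 72, with a median of 0.04, near the 0.03 of all genes. APOA1, the main protein of high-density lipoprotein, had -0.95 ± 0.43 (adjusted p = 0.929).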

How the data were processed

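The authors deposited gene-level TPM values for 20 liver libraries, made on the GRCg7b build per the submitters' processing notes; the aligner, the quantifier, the strand setting and the read depth are not given here by any label or header. Per the labels' protocols, total RNA was enriched for mRNA. The table has 0 columns that match no sample. Genes with at least 1 TPM in 4 libraries (12808 of 21749) were tested with limma 3.58.1 in R 4.3.3 on log2(TPM + 1), with 5 group means, a mean-variance trend and 15 residual degrees of freedom, and p-values were adjusted by Benjamini-Hochberg over all 12808 genes, with a threshold of 0.05. The script was tested on simulated data. Correlations used 100000 permutations (scipy 1.17.1), two-sided. Gene positions and overlaps came from RefSeq on GRCg7b, in which 20888 genes of the table matched by symbol. Beside the receptors and VTG2, the genes named were those of each list with the 4 smallest F-test p-values. For each receptor, the 3 genes most correlated with it were also named. Close relatives of each receptor, ALB, ANGPTL4 and the overlapping genes were added outside this rule. A gene of the nuclear receptor list is not reported here. The members and gene lists were chosen with earlier results of these data known, and the family of receptor pairs and the span measure after the values were seen. Alternatives were a pseudocount of 0.1, no filter, a filter of 5 TPM, median-ratio scaling, fitting only the groups compared, a replicate block, no trend, leaving out the 3 libraries least like the others, and leaving out each library.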

Additional observations from a re-analysis of the deposited data

Results flagged for a closer look

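The receptors, VTG2 and a few further genes were each looked at in the 4 libraries of each group, in 60 sets. In 7 of the 60, the most distant library lay farther from the others than Dixon's critical value at 95% allows. Chance flags about 1 in 20 such sets if values are normally distributed. The share over all genes was not computed, so the count of 7 is not a result about the receptors. NR3C1 was at 7.38 TPM in week 72 high replicate 1, against 12.5, 13.3 and 13.4 TPM in the others of that group. THRA was at 16.9 TPM in week 32 replicate 4, against 22.3 to 22.8 TPM, at 24.5 TPM in week 50 high replicate 1, against 18 to 18.5 TPM, and at 33.9 TPM in week 72 low replicate 2, against 16.7 to 19.2 TPM. PPARA was at 77.3 TPM in week 72 high replicate 2, against 38.4 to 44.3 TPM. NR1H3 was at 71.3 TPM in week 72 low replicate 4, against 88.4 to 89.8 TPM. VTG2 was at 13572 TPM in week 72 low replicate 3, against 95.1, 241 and 725 TPM, so in that group the library set apart is the one with VTG2 at the level of the other groups.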

How the results depend on the processing

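The count of receptors called stayed at 0 of 9 in each of the 10 tests, under every alternative run, in 279 counts, and no correlation with VTG2 passed in 6 more. In 2511 alternative tests of single receptors the smallest adjusted p was 0.187, and 20 had an unadjusted p under 0.05, the smallest 0.0124 (THRB at week 50, high against low, without week 50 low replicate 4). Over all genes, the count called ranged over the alternatives from 0 to 58 in the F test (1 in the fit as reported), 0 to 63 between high and low layers at week 72 (1), 0 to 18 for the change of the laying difference (0), 0 to 71 in week 72 low against week 32 (0) and 0 to 95 in week 72 against week 50 in low layers (5). Each of these highest counts came without week 72 low replicate 3. The count reached 3 in week 50 low and in week 72 high against week 32, and 6 in week 72 against week 50 in high layers, the last with only those groups in the fit.

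No pairing of the samples by replicate number was used in the fit as reported. The deviations of libraries with the same number in other groups had a median r of 0.028 over 40 pairs (-0.27 to 0.28), and 14 were over 0.1. For other numbers the median was -0.0097, and 19 of 120 pairs were over 0.1. Of the 20 libraries, 11 correlated best with their own number. This is a hint of pairing from the data and not from the design. With a replicate block, 0 of 9 receptors were called in every test. HNF4A and RXRA in week 72 against week 50 in high layers then had unadjusted p-values of 0.035 and 0.0452 in limma. Their adjusted p-values in limma were 0.863 and 0.874. Over all genes, the count in week 72 against week 50 in low layers was 12 with the block, against 5 without it.

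Some receptor differences changed sign. With median-ratio scaling they were -0.0379 (NR3C1) and -0.026 (THRA) for high against low layers at week 50, and for ESR1 -0.0738 in week 50 high against week 32 and 0.0266 in week 72 against week 50 in low layers. Without the 3 libraries least like the others they were 0.15 (PPARG) and 0.14 (NR1H3) at week 50. Leaving out each library in turn, the laying difference at week 50 ranged from -0.0941 to 0.131 for NR3C1, -0.0622 to 0.146 for THRA, -0.112 to 0.553 for PPARA, -0.584 to 0.0573 for PPARG, -0.271 to 0.0839 for NR1H3 and -0.0527 to 0.471 for HNF4A. At week 72 it ranged from -0.157 to 0.137 for NR3C1, -0.249 to 0.0799 for THRB, -0.0943 to 0.236 for PPARA and -0.117 to 0.491 for HNF4A. For ESR1 the range was -0.392 to 0.182 for the change of the laying difference, -0.13 to 0.417 in week 50 high against week 32, -0.279 to 0.213 in week 72 high against week 32, -0.457 to 0.0908 in week 72 against week 50 in high layers and -0.318 to 0.194 in week 72 against week 50 in low layers. The sign of each of these was set by single libraries, and the cause was not tested.

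The correlations with VTG2 that changed sign were, without the 2 libraries farthest from its median, 0.22 (NR3C1), 0.34 (THRA), 0.18 (NR1H3), 0.32 (RXRA) and 0.13 (HNF4A); over all 20 libraries, 0.12 (NR3C1), 0.0499 (PPARG), 0.11 (NR1H3) and 0.12 (HNF4A); with median-ratio scaling, 0.28 (THRA) and 0.11 (RXRA); without the 3 libraries least like the others, -0.0105 (ESR1), 0.32 (THRA) and -0.22 (PPARA); and with each group centred, 0.000418 (HNF4A). None passed the threshold, and the cause was not tested. The depth behind the TPM values is unknown, and with 4 libraries per group the 95% interval of the ESR1 laying difference at week 50 reached from -0.31 to 1.44.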
